A study of Homo sapiens with 4 samples.

Results

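The proliferation genes described here are 38 genes that dividing cells use to copy their DNA and to separate their chromosomes, out of 19775 genes represented by a single-gene probe set on the arrays. They were chosen by name from general knowledge of the cell cycle, 25 of them as mitosis genes and 13 as DNA replication genes. Earlier results of these data were known when they were chosen. Each gene was represented by its brightest single-gene probe set, by mean log2 signal over the 4 arrays, and all 38 were measured in both cell lines. RNA came from stably transduced cultures of 2 human lung cancer lines. NCI-H358 is a bronchioloalveolar carcinoma line and A549 a lung adenocarcinoma line, and A549 is known to have lost the CDKN2A locus. Each line carried either a vector for CHST11, a Golgi enzyme that adds sulfate to chondroitin chains, or an empty vector, and all cultures had passed antibiotic selection. The groups were NCI-H358 CHST11, NCI-H358 empty vector, A549 CHST11 and A549 empty vector, with 1 Affymetrix array in each. The labels do not say whether the cells were clones or pools, nor do they name the promoter of the vector.

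The cell cycle is driven by cyclins, which switch on cyclin-dependent kinases in turn. In G1 the RB protein holds back the E2F transcription factors. Once cyclins D and E release them, E2F turns on the genes of DNA replication, and later the MuvB complex, with B-MYB and then FOXM1, turns on the genes of mitosis. Because these genes are transcribed in dividing cells and are low in resting ones, their RNA is widely used as a measure of how fast a tumour grows. In RNA from a whole culture, fewer cycling cells and less RNA per cycling cell cannot be told apart.

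The mitosis and replication genes differed in the letters in front of them, shown here because these words are the known docking sites of the factors that separate both groups in time. Promoter windows of RefSeq on GRCh38.p14, from 250 bases before to 50 bases after the annotated start, were found for 29 of the 38 genes, with 35 windows. Windows were searched on both strands for 3 motifs. The cell cycle genes homology region (CHR), to which MuvB binds, was searched as TTTGAA and as the variant form TTCGAA. The CCAAT box, the site of NF-Y, was taken as CCAAT, and the E2F core was searched first as TTCCCGC, and as the variant forms TTGGCGC, then the form TTCGCGC, then the form TTGCCGC. The CHR words were present in 15 of 21 windows of mitosis genes (71.4%) and in 1 of 14 windows of replication genes (7.1%), against 16.4% of all 35116 windows. The E2F words were present in 5 mitosis windows (23.8%) and 11 replication windows (78.6%), against 13% of all windows. CCAAT was common in both, in 90.5% of mitosis and 78.6% of replication windows, against 34.6% of all. Both a CHR word and CCAAT were present in 66.7% of mitosis windows and 6.4% of all windows. Over the 22199 windows of protein-coding genes alone, CHR words were present in 13.7%, E2F words in 16.1% and CCAAT in 34.7%. A match is a description of letters and not of binding. Some genes had several windows, and only some of these overlapped. The median GC content was 59.3% in mitosis windows, 69.0% in replication windows, 62.3% in windows of protein-coding genes and 58.7% in all windows. The part of GC content in the E2F share was not tested.

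The 120 bases in front of the start are printed for 5 mitosis and 2 replication genes whose windows show these words, 5′ to 3′ on the strand of the gene, with matches of the 3 motifs or of their reverse complements in capitals. In MKI67 a CHR word and a CCAAT box on the opposite strand (ATTGG) share letters, and in MCM6 a pair of E2F words overlap. The MCM6 window is also the 1 replication window with a CHR word, which lies outside the bases printed.
CCNB2 (chr15:59105026-59105145, plus strand): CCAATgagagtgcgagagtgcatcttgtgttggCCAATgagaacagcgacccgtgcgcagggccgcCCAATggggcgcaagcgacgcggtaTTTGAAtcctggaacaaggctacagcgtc
CDC20 (chr1:43358861-43358980, plus strand): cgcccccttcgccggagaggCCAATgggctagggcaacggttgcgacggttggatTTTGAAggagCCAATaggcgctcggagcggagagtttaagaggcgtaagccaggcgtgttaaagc
PLK1 (chr16:23678769-23678888, plus strand): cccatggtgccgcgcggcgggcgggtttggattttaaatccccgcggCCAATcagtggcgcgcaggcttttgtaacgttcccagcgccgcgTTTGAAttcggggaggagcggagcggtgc
KIF11 (chr10:92593010-92593129, plus strand): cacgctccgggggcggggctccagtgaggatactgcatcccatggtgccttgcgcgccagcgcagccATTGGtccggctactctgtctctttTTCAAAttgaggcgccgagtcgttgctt
MKI67 (chr10:128126424-128126543, minus strand): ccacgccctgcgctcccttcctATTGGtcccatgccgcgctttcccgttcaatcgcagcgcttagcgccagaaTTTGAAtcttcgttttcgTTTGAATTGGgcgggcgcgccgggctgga
MCM3 (chr6:52284743-52284862, minus strand): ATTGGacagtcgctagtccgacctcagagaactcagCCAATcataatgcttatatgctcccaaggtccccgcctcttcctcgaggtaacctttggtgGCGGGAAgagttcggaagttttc
MCM6 (chr2:135876444-135876563, minus strand): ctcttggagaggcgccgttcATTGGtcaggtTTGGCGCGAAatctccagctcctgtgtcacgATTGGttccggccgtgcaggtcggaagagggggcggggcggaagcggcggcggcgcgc

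Before the results, the arrays were checked against their labels. The median signal was 15.9 to 16.31 on the 4 arrays. CHST11 itself had a signal of 1058 on the NCI-H358 CHST11 array, against 220.1 with the empty vector, and of 343.5 on the A549 CHST11 array, against 129.0, at 1 of its 3 probe sets. Of 5 epithelial markers, KRT8, KRT18 and CDH1 had signals of at least 810.5 on each array. KRT19 and EPCAM had at least 1690 in NCI-H358, against 81.96 and 87.64 for KRT19 and 123.0 and 209.8 for EPCAM in A549, where EPCAM lay at log2 -0.77 with CHST11. Of the markers of leukocytes, endothelium and fibroblasts, PTPRC, CDH5, VWF, COL1A2 and PDGFRB lay between 3.521 and 15.99, below the floor of 16.14. COL1A1 had 152.5 to 170.2, PECAM1 34.58 to 39.96 and CD3E 21.86 to 27.1 over the 4 arrays, and CD14 had 11.08 and 10.6 in NCI-H358, against 38.41 and 24.21 in A549. CDKN2A had signals of 804.3 and 668.4 in NCI-H358, against 23.95 and 18.42 in A549. The brightest probe set of its neighbour MTAP went the other way, with 53.45 and 57.57 in NCI-H358, against 132.0 and 112.9 in A549, while its other 3 measured probe sets, at 4.313 to 10.97 in A549, lay between log2 1.89 and 2.83 after the floor.

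The first comparison set NCI-H358 against A549 over both vectors. Of the 13 replication genes 7 were higher in NCI-H358, among them cyclin E2 and 4 of the 6 MCM helicase subunits, 1 was lower and 5 did not pass. Of the 25 mitosis genes 9 were higher, CENPE most, 3 were lower, KIF11 and MKI67 most, and 13 did not pass. In the limma fit, 20 of the 38 genes passed an adjusted p of 0.05, 16 higher and 4 lower in NCI-H358. These counts have to be read against the whole array: 64.6% of all 12288 genes tested passed, 34% higher and 30.6% lower. The share of proliferation genes that passed was thus below the background, and the split of their calls was 16 to 4 where that of all genes was 4174 to 3764. Under cyclic loess normalization, and with a trend in the variance, the split of the members was 16 to 9. Differences were also smaller than over all genes tested. The median size of the log2 difference, leaving out its sign, was 0.31 over the members and 0.49 over all genes. At least 2-fold between the lines were 2 of the 38 (5.26%), against 24.6% of all genes. The sets are unlike, however. All 38 members were measured in both lines, while 10565 of the 12288 genes tested were, and the others were measured in 1 line only. Shares and medians of this comparison over those 10565 genes alone were not computed. The median signed difference was 0.40 over the 13 replication genes, 0.06 over the 25 mitosis genes and 0.03 over all genes tested. The p-values of this comparison do not measure a spread between replicate cultures. Each line gave 2 arrays of cultures with different vectors, and the fit had 1 residual degree of freedom per gene. Its error was taken from how unequally the lines responded to the vector.

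**Figure D1:**
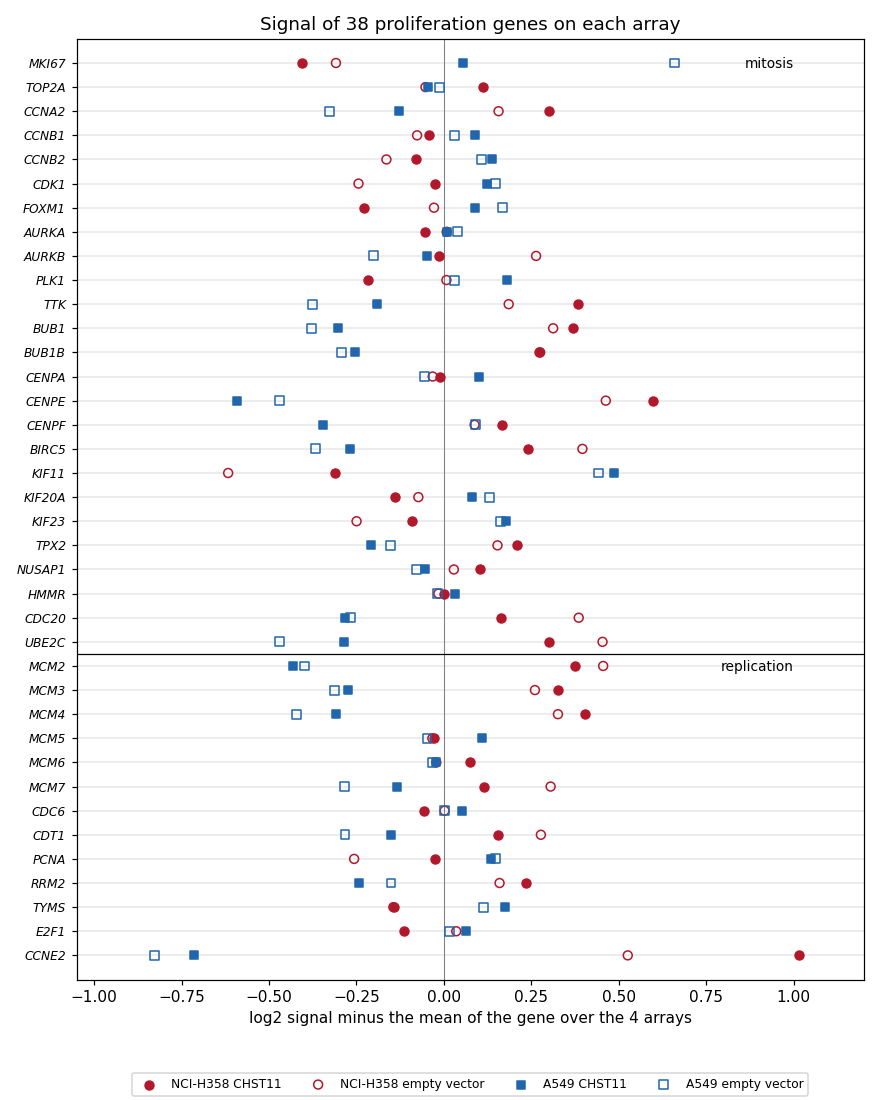
Log2 signal of each gene on each array, minus the mean of that gene over the 4 arrays (x axis), with NCI-H358 as circles, A549 as squares, CHST11 filled and empty vector open. The circles and squares of CCNE2, CENPE, KIF11, MCM2, MCM3 and MCM4 lie well apart, while the 4 points of HMMR, AURKA and CENPA lie close together.

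The MCM proteins form the ring-shaped helicase that unwinds DNA at the replication fork. MCM2 had signals of 1393 and 1474 in NCI-H358 with CHST11 and empty vector, against 797.6 and 815.2 in A549. The lines did not overlap, and MCM2 was 1.78-fold higher in NCI-H358 (log2 0.83, SE 0.09, adjusted p = 0.00149). MCM4 had 1316 and 1247 in NCI-H358, against 802.9 and 742.7 in A549, which was 1.66-fold higher (log2 0.73, adjusted p = 0.00215). Of its other 4 measured probe sets, 3 lay between log2 0.61 and 1.14, and the dimmest, with signals of at most 39.93, lay at 0.01. MCM3 had 1253 and 1197, against 826.6 and 804.4 (log2 0.59, SE 0.09, adjusted p = 0.00432). MCM7 was higher by log2 0.42 (SE 0.12, adjusted p = 0.0325), with its other probe set at 0.35. For the remaining subunits the lines lay close together. MCM5 had 768.3 and 766.2 in NCI-H358, against 846.2 and 758.2 in A549 (log2 -0.06, SE 0.09), and MCM6 had 1578 and 1475, against 1475 and 1464 (log2 0.05, SE 0.09). The dim second MCM6 probe set, with signals from 25.42 to 52.06, lay at log2 -0.69.

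Origins are loaded with the helicase by CDC6 and CDT1. CDT1 had signals of 394.7 and 429.5 in NCI-H358, against 319.3 and 291.3 in A549 (log2 0.43, SE 0.11, adjusted p = 0.0207), and its dimmer probe set lay at 0.81. CDC6 had 515.7 and 537.2, against 556.1 and 537.6, a difference of log2 -0.06 (SE 0.09, adjusted p = 0.622). Among the enzymes that supply nucleotides, RRM2, the small subunit of ribonucleotide reductase, was higher in NCI-H358 by log2 0.40 (SE 0.10, adjusted p = 0.0203). TYMS, thymidylate synthase, was the replication gene that passed the test in the other direction: it had 2438 and 2436 in NCI-H358, against 3038 and 2913 in A549 (log2 -0.29, SE 0.09, adjusted p = 0.0409). PCNA, the sliding clamp of the polymerases, had 4095 and 3491, against 4578 and 4623, and did not pass (log2 -0.28, adjusted p = 0.0686).

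Cyclin E2, which activates CDK2 at the start of S phase, had the largest difference of the 38 genes. CCNE2 had signals of 516.5 and 367.5 in NCI-H358, against 155.4 and 143.9 in A549. Both NCI-H358 arrays lay far above both A549 arrays, and the gene was 2.91-fold higher (log2 1.54, SE 0.13, adjusted p = 0.000682). Its other measured probe set had 194.8 and 179.2 in NCI-H358, against 76.31 and 61.52 in A549 (log2 1.45). E2F1, the factor that drives many replication genes, had the lowest signals of the members and overlapped between the lines, with 120.7 and 133.9 in NCI-H358, against 136.5 and 132.1 in A549 (log2 -0.08, SE 0.10).

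**Figure D2:**
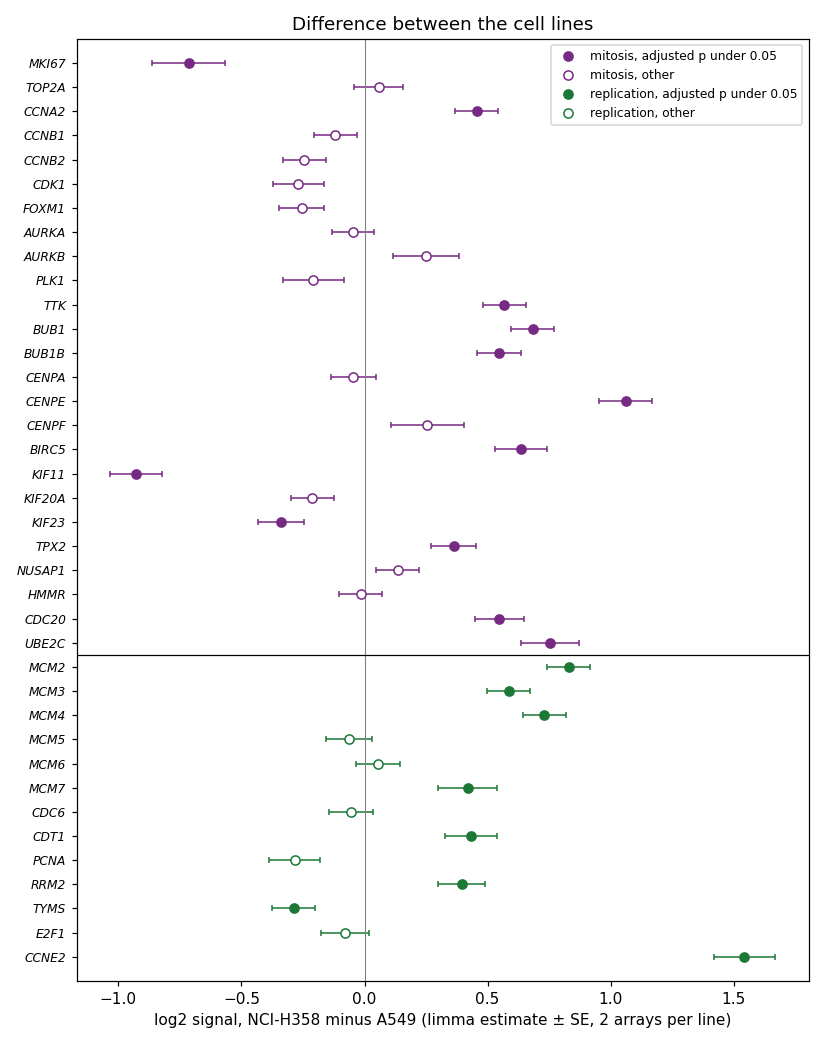
Log2 signal in NCI-H358 minus A549 for each gene (x axis), as the limma estimate with its SE from 2 arrays per line; filled points passed an adjusted p of 0.05 over all genes tested. Of 13 replication genes 7 were higher and 1 lower, and of 25 mitosis genes 9 were higher and 3 lower. Over all genes tested 34% were higher and 30.6% lower.

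The 9 mitosis genes higher in NCI-H358 included BUB1, BUB1B and TTK of the spindle checkpoint, both partners of the anaphase-promoting complex and the kinetochore motor CENPE. CENPE, the kinesin that carries chromosomes to the spindle equator, had signals of 549.1 and 500.3 in NCI-H358, against 241.0 and 262.1 in A549. It was 2.08-fold higher (log2 1.06, SE 0.11, adjusted p = 0.00124), with 1 probe set on the array. The checkpoint delays anaphase until all chromosomes are attached, and 3 of its members passed. They belong to a group of 6 mitotic kinases and checkpoint genes of which 3 passed, and BUB3, another checkpoint gene, lay at -0.29 (adjusted p = 0.0515). BUB1 had 454.5 and 436.7, against 284.8 and 270.5 (log2 0.68, SE 0.09, adjusted p = 0.00262). BUB1B, which encodes BUBR1, lay at log2 0.55 (SE 0.09, adjusted p = 0.00546) and TTK, also called MPS1, at 0.57 (SE 0.09, adjusted p = 0.00475). CDC20, the activator of the anaphase-promoting complex that the checkpoint restrains, had 1814 and 2117, against 1333 and 1347 (log2 0.55, SE 0.10, adjusted p = 0.00822). UBE2C, the ubiquitin-conjugating enzyme of that complex, had 3382 and 3759, against 2252 and 1982 (log2 0.76, SE 0.12, adjusted p = 0.00499).

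BIRC5, or survivin, the chromosomal passenger that guides Aurora B, was the member whose probe sets differed most. The brightest had 1274 and 1420 in NCI-H358, against 896.0 and 836.1 in A549 (log2 0.64, SE 0.11, adjusted p = 0.00613). A pair of others lay at log2 0.47 and 1.27, but the dimmest had 36.09 and 40.55 in NCI-H358, against 101.7 and 97.83 in A549, a difference of -1.38. Of the 10 called members with at least 2 measured probe sets, BIRC5 was the exception, and in the other 9 all measured probe sets had the same sign.

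CCNA2, the cyclin of S and G2 phase, was higher in NCI-H358 (log2 0.46, SE 0.09, adjusted p = 0.00986), with its other probe set at 0.88. The B cyclins and their kinase did not pass. CCNB1 had 2006 and 1958 in NCI-H358, against 2196 and 2107 in A549 (log2 -0.12, SE 0.09, adjusted p = 0.288), and CCNB2 had 1404 and 1325, against 1632 and 1601 (log2 -0.24, SE 0.09, adjusted p = 0.0641). CDK1 had 1917 and 1647, against 2123 and 2160 (log2 -0.27, SE 0.10, adjusted p = 0.0779), and its other 2 measured probe sets lay at -0.38 and -0.40. FOXM1, the transcription factor of late mitotic genes, lay at log2 -0.26 (SE 0.09, adjusted p = 0.0633). The arrays of the lines did not overlap for CCNB1, CCNB2, CDK1 and FOXM1, but over all genes this was so for 85.7%.

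Of the other motors, KIF11 and KIF23 were lower in NCI-H358. KIF11, the kinesin that pushes the spindle poles apart, had signals of 408.7 and 330.7 in NCI-H358, against 710.8 and 688.6 in A549. It was lower in NCI-H358 by log2 -0.93 (SE 0.11, adjusted p = 0.00187), on 1 probe set. KIF23, a kinesin of the midbody, had -0.34 (SE 0.09, adjusted p = 0.0298), and KIF20A, which acts in cytokinesis, had -0.21 (SE 0.09, adjusted p = 0.0911). TPX2, which activates Aurora A on the spindle, was higher by 0.36 (SE 0.09, adjusted p = 0.0228). NUSAP1, which bundles spindle microtubules, had 0.13 (adjusted p = 0.239), and HMMR, a spindle protein first known as a hyaluronan receptor, had -0.01 (adjusted p = 0.891). AURKA, AURKB and PLK1, kinases of spindle assembly and cytokinesis, lay at -0.05, 0.25 and -0.21, and none passed (adjusted p = 0.664, 0.164 and 0.199).

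MKI67, which encodes the Ki-67 antigen that pathologists count, was lower in NCI-H358. It had signals of 281.2 and 300.8 in NCI-H358, against 386.7 and 589.0 in A549 (log2 -0.71, SE 0.15, adjusted p = 0.0124), and all 4 of its probe sets lay below 0, from -0.98 to -0.34. Both NCI-H358 arrays lay below both A549 arrays, and the A549 arrays stood apart from each other. Without the A549 empty vector array the limma difference was -0.41 (adjusted p = 0.0605), and without the A549 CHST11 array it was -1.02 (adjusted p = 0.0229). Without the NCI-H358 CHST11 array it was -0.67 (limma adjusted p = 0.262), and without the NCI-H358 empty vector array -0.76 (limma adjusted p = 0.219), so that it passed in 1 of these 4 fits. TOP2A, the topoisomerase that untangles sister chromosomes, had 2258 and 2016 in NCI-H358, against 2025 and 2073 in A549, which overlapped (log2 0.06, SE 0.10). CENPA, the histone variant of the centromere, had 282.2 and 278.4, against 305.1 and 273.9 (log2 -0.05, SE 0.09). CENPF, a kinetochore protein, had 671.4 and 635.3, against 470.7 and 636.0 (log2 0.26, SE 0.15, adjusted p = 0.194), and its dimmer measured probe set lay at -0.36.

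Calls in this comparison depended on the arrays. BUB1, MCM2, MCM3 and MCM4 passed under each alternative in which they could be tested. Most of the 20 called genes, CCNE2 and KIF11 among them, did not pass when at least 1 of the 4 arrays was left out. CCNA2, TTK, MCM7, CDT1 and TYMS did not pass whichever array was left out. TYMS and KIF23 also did not pass with the median of probe sets. CCNE2 lay between 1.30 and 1.79 and KIF11 between -1.08 and -0.78 over the alternatives, with limma adjusted p of up to 0.065 and 0.0694. In each fit without 1 array fewer members passed, and so did fewer of all genes tested. Such a fit leaves 1 array in a line, so that its numbers of calls are not given here. The sign of the 20 called genes did not change under the alternatives run.

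Other genes of the same machinery, listed from general knowledge, were counted in the same way. Of 63 other mitosis genes 20 were higher and 12 lower in NCI-H358, with a median of log2 0.03. Of 56 other replication genes 20 were higher and 11 lower, with a median of 0.11. Both counts stand against 34% higher and 30.6% lower over all genes tested. The median of the 13 replication members was 0.40. At the ends of the longer replication list stood ATAD2, a chromatin ATPase (log2 1.12, SE 0.09), and CHEK1, the replication checkpoint kinase (0.97, SE 0.10), above, and the single-strand binding protein RPA1 (-0.96, SE 0.09) below. The polymerase subunit POLD2 was lowest, with 276.4 and 310.4 in NCI-H358, against 584.7 and 587.4 in A549. Among the other mitosis genes CKAP2L, a spindle protein (1.61, SE 0.09), and CENPU, a kinetochore subunit (1.58, SE 0.09), were highest. Lowest were KIF18A, a kinesin that limits microtubule length (-1.27, SE 0.10), and SGO1, which protects cohesion at the centromere. SGO1 had 24.04 and 23.41 in NCI-H358, both under the filter of 27.0, where A549 had 92.55 and 83.65, so that it was at least 3.26-fold lower.

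The controls of entry into S phase lay on both sides as well. Of 26 measured RB, E2F, MYB-MuvB and G1 cyclin genes 10 were higher and 6 lower in NCI-H358, where 34% of all genes tested were higher and 30.6% lower. Their median size was log2 0.53 without sign, where that of the members was 0.31 and that of all genes 0.49. CCND3, cyclin D3, had 384.7 and 447.6 in NCI-H358, against 1594 and 1637 in A549 (log2 -1.96, SE 0.10, adjusted p = 0.000178), while CCND1, cyclin D1, was higher (0.55, SE 0.09, adjusted p = 0.00599). The cyclins E were also opposed: against CCNE2 at 1.54, CCNE1 had 216.4 and 252.9 in NCI-H358 and 375.5 and 369.4 in A549 (-0.67, SE 0.11, adjusted p = 0.00503). SKP2, the ubiquitin ligase subunit that degrades the inhibitor p27, had 988.6 and 896.7, against 325.2 and 338.0 (1.51, SE 0.10, adjusted p = 0.000376), and all 3 of its probe sets lay between 1.39 and 1.63. CDKN1B, which encodes p27, was lower by -0.55 (SE 0.10, adjusted p = 0.00925), and CDKN1A, which encodes p21, by -1.26 (SE 0.09, adjusted p = 0.00056). E2F7, a repressor of the family, was higher by 1.10 (SE 0.10), and E2F2, an activator, lower by -0.94 (SE 0.09). CDC25A, the phosphatase that activates CDK2, was higher by 1.08 (SE 0.10), as were CDK4 (0.71, SE 0.09) and CDK2 (0.65, SE 0.09). CDKN2A and CDKN2B, inhibitors of CDK4 and CDK6, were at least 27.1-fold and at least 7.49-fold higher in NCI-H358, their A549 arrays lying below the filter. CDKN2D, an inhibitor of the same kinases, was higher by 0.59 (SE 0.11, adjusted p = 0.00975), and CDKN1C, which encodes p57, by 0.37 (SE 0.09, adjusted p = 0.0183). MYC and the RB gene itself, RB1, lay at -0.07 and 0.10 and did not pass.

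**Figure D3:**
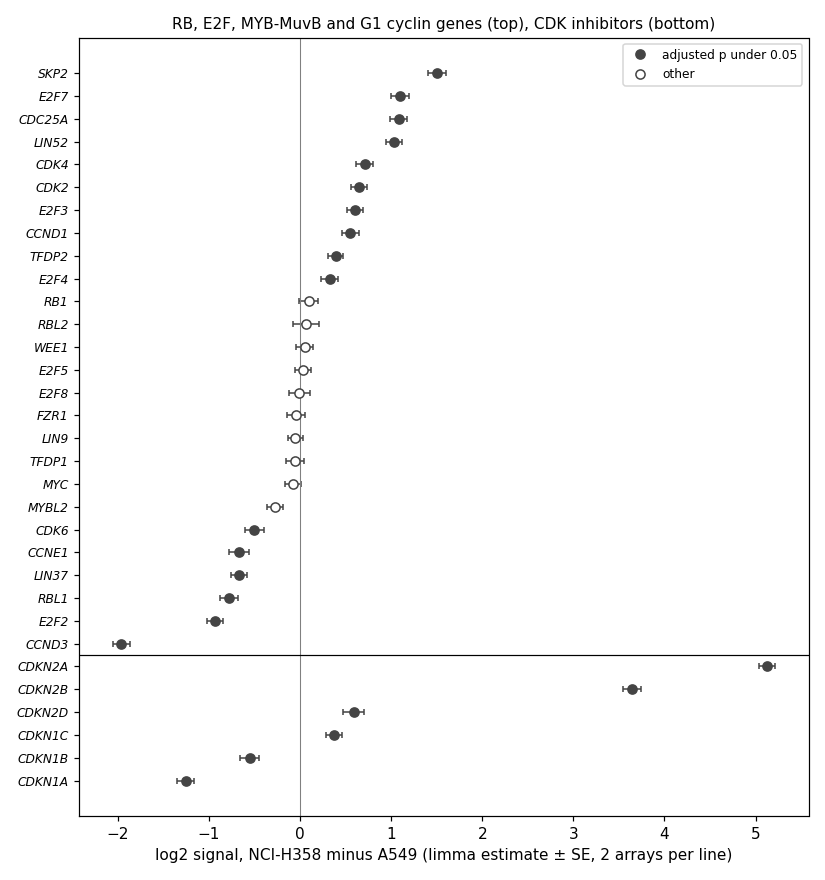
Log2 signal in NCI-H358 minus A549 (x axis) for 26 RB, E2F, MYB-MuvB and G1 cyclin genes and, under the line, 6 CDK inhibitors, as limma estimates with SE from 2 arrays per line. SKP2 is highest and CCND3 lowest of the upper group; the estimates of CDKN2A and CDKN2B rest on A549 signals near or below the floor.

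The second comparison asked what the CHST11 vector did to proliferation genes in each line. With 1 array per group it has no test. In NCI-H358 the 38 log2 ratios, CHST11 over empty vector, ran from -0.28 to 0.49 with a median of 0.03, and 0 of them reached 1.5-fold, where 0.921% of 11401 genes were at least that much higher and 0.272% lower. In A549 they ran from -0.61 to 0.20 with a median of 0.04, and 1, MKI67, was at least 1.5-fold lower, where 0.48% of 11452 genes were higher and 0.725% lower. Over all measured genes the medians were 0.00 and 0.01. As a gauge of error, where a gene had several probe sets, their ratios scattered with an SD of 0.17 in NCI-H358 and 0.16 in A549; this covers scatter on the arrays and not between cultures. In size, 10 members in NCI-H358 and 6 in A549 exceeded that SD, where 30.3% and 27.8% of all measured genes did.

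In NCI-H358 the highest ratio was that of CCNE2, with signals of 516.5 with CHST11, against 367.5 with the empty vector (log2 0.49), but its other probe set had 194.8, against 179.2 (0.12). KIF11 had 408.7, against 330.7 (0.31). These 2 were the members at least 1.2-fold higher, where 9.45% of all genes were. On the other side, AURKB, the kinase of cytokinesis, had 431.5 with CHST11, against 523.1 with the empty vector (log2 -0.28), the 1 member at least 1.2-fold lower, where 5.05% of all genes were. CDC20 had 1814, against 2117 (-0.22), PLK1 151.4, against 176.8 (-0.22), FOXM1 618.1, against 709.8 (-0.20), and UBE2C 3382, against 3759 (-0.15). PCNA lay at 0.23 and CDK1 at 0.22, but the other measured CDK1 probe sets lay at 0.00 and -0.07. The 6 MCM genes ran from -0.19 for MCM7 to 0.10 for MCM6.

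In A549 the ratios of 35 members lay between -0.09 and 0.20, and CCNA2, cyclin A2, was highest at 0.20 (589.4 with CHST11, against 513.2 with the empty vector) with its other probe set at -0.05. TTK and UBE2C both had 0.18, and 0 members were at least 1.2-fold higher, against 5.41% of all genes. The replication genes ran from -0.09 for RRM2 to 0.16 for MCM5. This range was set by leaving out the 3 lowest members, MKI67, CENPF and CENPE, so that their place outside it was fixed. MKI67 had 386.7 with CHST11, against 589.0 with the empty vector (log2 -0.61), and its 4 probe sets ran from -0.62 to -0.45. CENPF had 470.7, against 636.0 (-0.43), with its other measured probe set at -0.47, and CENPE had 241.0, against 262.1 (-0.12). CENPE, on 1 probe set, lay close to RRM2 and within the SD of 0.16 between probe sets of the same gene. MKI67 and CENPF were the members at least 1.2-fold lower, where 6.05% of all genes were.

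These 3 genes have long mRNAs, and other listed genes with long mRNAs lay low on this pair of arrays. The list of 59 others was written from general knowledge but with earlier results of these data known, so it is no independent test. Of 53 measured in A549, 52 lay below 0, where 5184 of all 11452 genes did, and the median was -0.42. In NCI-H358 the same list had a median of 0.12, with 41 of 54 above 0, where 50.7% of all genes were. MKI67, CENPF and CENPE had -0.10, 0.08 and 0.13 in NCI-H358. The 4 probe sets of MKI67 ran from -0.10 to 0.27 there. Measured mRNA lengths were not used here, and the part of this shift in the ratios of MKI67 and CENPF was not tested. Without these 3 genes the median of the members in A549 was 0.05. In the line comparison 42 of 55 tested genes of the long mRNA list lay above 0, where 6377 of all 12288 genes did. The median of the list was log2 0.335, where that of all genes was 0.029. CENPE lay at 1.06 there, CENPF at 0.26 and MKI67 at -0.71, and the part of mRNA length in these was not tested.

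**Figure D4:**
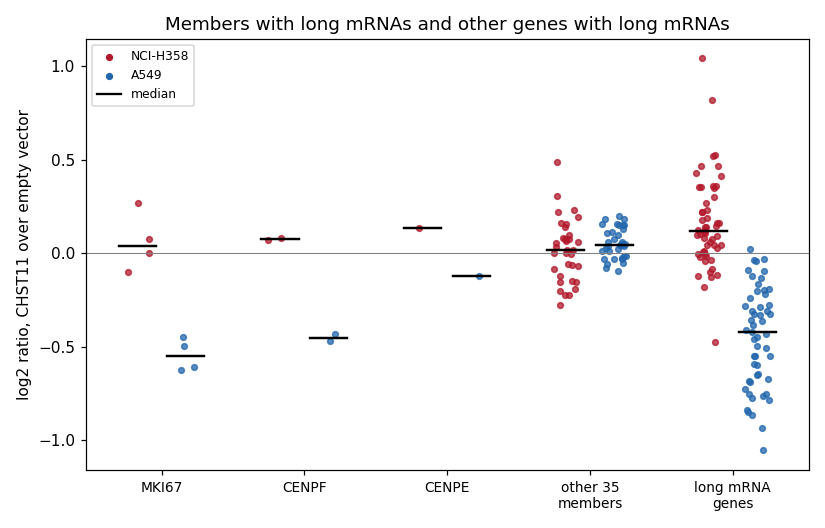
Log2 ratio of CHST11 over empty vector (y axis) in NCI-H358 (red) and A549 (blue); points are probe sets for MKI67, CENPF and CENPE and genes for the other 35 members and for other genes with long mRNAs, and black lines are medians. In A549 the points of MKI67 and CENPF lie with the long mRNA genes, whose median is -0.42, and below the other members.

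Taking both lines as repeats of the vector contrast, limma gave 0 calls among 12288 genes at the threshold of 0.05 on the adjusted p, and 373 genes (3.04%) had an unadjusted p under 0.05. Of the 38 members 0 were called and 0 had an unadjusted p under 0.05. The nearest were CCNE2, with a fitted log2 difference of 0.30 (SE 0.13), MKI67 with -0.35 (SE 0.15) and TTK with 0.19 (SE 0.09), and the limma adjusted p was 1 for each. For TTK the lines gave nearly the same ratio, 0.20 in NCI-H358 and 0.18 in A549, from its 1 probe set. In both lines 16 of the 38 lay above 0 (42.1%), where 26.2% of all genes measured in both did, 6 lay below 0, where 21.5% did, and 16 had opposite signs. Under quantile normalization the median of the members in NCI-H358 was 0.00, so that the sign of so small a shift was not settled.

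**Figure D5:**
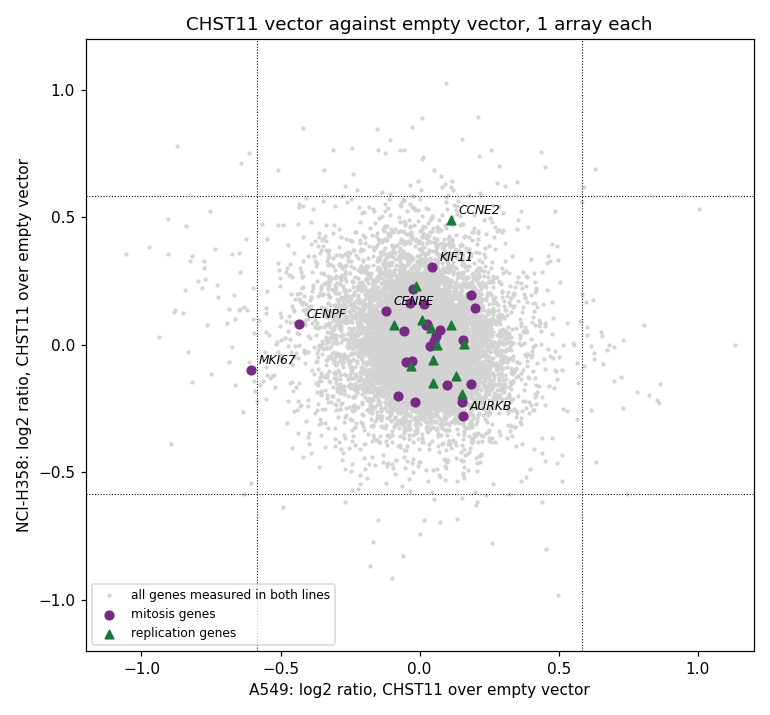
Log2 ratio of CHST11 over empty vector in A549 (x axis) and NCI-H358 (y axis), 1 array per group, for mitosis genes (circles), replication genes (triangles) and all genes measured in both lines (grey; 3 lie outside the axes); dotted lines mark 1.5-fold. MKI67 is the member beyond a dotted line, and the rest lie inside the grey cloud.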

How the data were processed

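RNA from 4 cultures was hybridised to 1-colour Affymetrix arrays with 54675 probe sets. What the authors deposited is a linear intensity per probe set, made with MAS5 per the submitters' processing notes. For MAS5, version and scaling target were not given in the sources used here. Before taking log2, signals under 16.14, the 50th percentile over the 4 arrays, were set to it. A gene was measured when its signal reached 27.0, the 60th percentile, on at least 1 array compared. Single-symbol probe sets numbered 41091, and the brightest by mean log2 signal represented each gene. Under R 4.3.3, limma 3.58.1 estimated the line difference and the vector difference shared by both lines (lmFit, then eBayes, with a line and a vector term, 12288 genes, Benjamini-Hochberg adjusted p of 0.05), with 1 residual degree of freedom per gene, prior degrees of freedom of 3.53, and the error taken from the unequal vector response of the lines. Within a line, genes were counted at 1.5-fold with no test. The number of arrays limits the precision. The code of the fit was run on simulated data with independent errors and a known difference in a small part of the genes. That setting differs from these data, so that it does not test the calls made here. Motifs were searched in RefSeq promoter windows. Python 3.11.15 with pandas 2.3.3, NumPy 2.4.6 and matplotlib 3.10.9 served for summaries and figures.

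The members, gene lists, tests and alternatives were chosen with earlier results of these data known, and the long mRNA list was written then too. Text names all members; of the other lists, the 2 highest and 2 lowest by line difference and every measured CDK inhibitor, with further genes chosen after their values were seen. Alternatives were other normalizations, floors, filters and fold sizes, the median of probe sets, a variance trend, the line term alone and leaving out arrays. Genes without a single-symbol probe set were not analysed here.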

Additional observations from a re-analysis of the deposited data

Results flagged for a closer look

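In 5 members the CHST11 ratio had opposite signs in the lines, and the ratios differed by more than 0.33, the summed SDs between probe sets of the same gene. Signs were opposite in 16 of the 38 members and in 5526 of the 10565 genes measured in both lines. How many of all genes also differed by more than 0.33 was not counted. With 1 array per group the difference was not tested. AURKB had a log2 ratio of -0.28 in NCI-H358 and 0.15 in A549, a difference of -0.43. PLK1 had -0.22 in NCI-H358 and 0.15 in A549, a difference of -0.37. MCM7 had -0.19 in NCI-H358 and 0.15 in A549, a difference of -0.34, but its other probe set, about as bright, had -0.10 in NCI-H358 and 0.06 in A549, which is under that limit. UBE2C had -0.15 in NCI-H358 and 0.18 in A549, also a difference of -0.34. CENPF had 0.08 in NCI-H358 and -0.43 in A549, a difference of 0.51, and its other measured probe set had 0.07 in NCI-H358 and -0.47 in A549. CENPF has a long mRNA, and 40 of 52 other listed long mRNA genes measured in both lines also had opposite signs. AURKB, PLK1 and UBE2C had 1 measured probe set each.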

How the results depend on the processing

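The members called between lines numbered 20 to 25 under the other normalizations, floors and variance models, the stricter filter, the line term alone and the median of probe sets, where 17 of the 20 were kept. They fell to 5 without the filter, where 9.8% of 19775 genes passed, and lay at 9 to 16 when 1 array was left out; these fits used the line term alone and assume that the lone array varies like the others. With CHST11, members past the fold numbered 3 at 1.2-fold in NCI-H358; in A549 they numbered 2 at 1.2-fold, 0 at 2-fold, 0 with the median of probe sets and 0 without MKI67, CENPE and CENPF, an alternative chosen after seeing the data whose count the removal fixes. With the median of probe sets the line difference turned for TOP2A (-0.085), CCNB1 (0.077), CENPF (-0.36), CDC6 (0.004), E2F1 (0.018) and MCM6 (-0.318, limma adjusted p = 0.0455), and with quantile normalization for HMMR (0.011). Leaving out 1 array each gave -0.023 to 0.14 for TOP2A, -0.122 to 0.033 for CENPA, -0.04 to 0.01 for HMMR and -0.141 to 0.017 for MCM5. None of these was called in the report. Values restricted to members with short proteins were not computed, since no protein table was used here. The shared vector fit pairs the vectors by cell line; the labels give no replicate numbers for any further block.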

Other observations

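With CHST11, 5 of 6 measured CDK inhibitor genes lay above 0 in NCI-H358, where 50.7% of all genes did, and 3 of 4 in A549, where 54.7% did. CDKN1A, which encodes p21, lay below 0 in both, with 264.3, against 277.7, in NCI-H358 (log2 -0.07), and 598.0, against 700.2, in A549 (-0.23). CDKN1C, which encodes the inhibitor p57, had 43.25 with CHST11, against 30.04 with the empty vector, in NCI-H358 (log2 0.53), and 32.93, against 23.49, in A549 (0.49); these signals lie near the filter. The RB relatives were chosen after their values were seen. RBL1, which encodes p107, had 99.8, against 72.41, in NCI-H358 (0.46), and 160.0, against 132.6, in A549 (0.27). RBL2, which encodes p130, had 307.6, against 225.8, in NCI-H358 (0.45), but 246.7, against 257.3, in A549 (-0.06). These values have 1 array per group and no test.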
